A study of Mus musculus with 12 samples.

Results

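Wnt ligands are secreted lipid-bearing proteins that bind Frizzled receptors together with the coreceptors Lrp5 and Lrp6. Binding keeps β-catenin from being broken down, and Apc is part of the complex that breaks it down. In the large intestine this signalling maintains the stem cells at the crypt base. Other Wnts act through Ror1, Ror2 and Ryk without β-catenin, and the Sfrp proteins, Wif1 and the Dkk proteins are secreted inhibitors that act on the ligands or on the coreceptors. The genes described here were the rows of the expression table named Wnt, Fzd, Sfrp or Dkk with a number and at most 1 letter, plus Wif1, Lrp5, Lrp6, Ror1, Ror2 and Ryk. This gave 42 of 27785 genes: 19 Wnt genes, 10 Frizzled genes, 4 Sfrp genes, 3 Dkk genes and 6 others.

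The study profiled 12 RNA libraries from the mouse rectum. The Lgr5-Cdx2-Apc group (2 libraries) carried Lgr5creER, CDX2creER and the APC flox allele, the Lgr5-Apc group (4 libraries) Lgr5creER with APC flox, and the Cdx2-Apc group (3 libraries) CDX2creER with APC flox. The control group (3 libraries) is titled WT, but its genotype label also names CDX2creER and APC flox, so its alleles are not settled by the labels. CreER is a recombinase that works after tamoxifen: here Lgr5, a gene of crypt base and hair follicle stem cells, and Cdx2, a gene of hindgut epithelium, drive it. The treatment protocol on all 12 libraries gives tamoxifen at 25 mg/kg given intraperitoneally each day for 5 days, while the separate treatment label is absent from the controls. Strain, age and sex are not given in the labels. By these labels the groups may differ from the controls in allele, in tamoxifen or in both, which cannot be told apart. No label says whether libraries share an animal, so the p-values reflect only the variation among these samples, which may be technical.

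The header of the expression table names no unit. Levels are taken as FPKM from the tools named and from the values (decimals whose totals differ between libraries), a unit that corrects fragment numbers for gene length and for library size. Differences are in log2(FPKM + 1), which understates the change of low genes. A gene was called when limma's Benjamini-Hochberg adjusted p was below 0.05 over the 17360 genes tested, those with at least 1 FPKM in at least 2 libraries. Of the 42 genes, 33 were tested. They were 14 Wnt, 9 Frizzled and 3 Sfrp genes, Dkk3 and the 6 others. The 9 not tested were Wnt1, Wnt2, Wnt7a, Wnt8a, Wnt9b, Fzd9, Sfrp5, Dkk1 and Dkk2. Wnt6, Wnt10b and Wif1 passed the filter only through the Lgr5-Cdx2-Apc libraries, so their presence among the tested genes already depends on that group.

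The libraries differed in tissue make-up, and this has to be read beside every result. A marker score, the mean log2(FPKM + 1) of a list, was 8.65 and 9.28 for 10 squamous epithelium genes in Lgr5-Cdx2-Apc, between 0.89 and 9.47 in Lgr5-Apc, between 0.99 and 4.73 in Cdx2-Apc and between 1.94 and 6.48 in controls. Lgr5-Apc libraries 2 and 3 (9.47 and 8.5) and control 1 (6.48) stood apart from the rest of their groups. The summed FPKM of 8 hair follicle genes was 113 and 40.7 in Lgr5-Cdx2-Apc, at most 5.01 in Lgr5-Apc, at most 0.754 in Cdx2-Apc and at most 0.782 in controls. All 8 were called higher in Lgr5-Cdx2-Apc than in controls, as were 7 of 8 tested skeletal muscle genes, while 10 of 10 smooth muscle and 8 of 8 columnar epithelium genes were called lower. Of the 10 squamous genes only 2 were called higher in this comparison, and Sprr1a and Dsg3 overlapped with controls. Outside Lgr5-Cdx2-Apc, the 8 hair follicle genes summed to 1 FPKM or more only in Lgr5-Apc 2 (5.01) and Lgr5-Apc 3 (3.69). Most of them therefore passed the filter only through Lgr5-Cdx2-Apc, and their calls already depend on that group. Of all tested genes, 19.1% were called in Lgr5-Cdx2-Apc against control, 10.5% higher. In the same comparison 2 of 5 leukocyte genes were called higher, among them the T cell gene Cd3e (3.17 ± 0.26, adjusted p = 0.00029), and 3 of 7 tested enteric neuron genes lower. Leukocyte genes summed to 29.0 and 35.1 FPKM in Lgr5-Cdx2-Apc, against 3.35 to 13.6 in controls, and enteric neuron genes to 4.31 and 3.69, against 21.6 to 52.2. Some of these traits were shared by Lgr5-Apc 2. There enteric neuron genes summed to 3.44 FPKM, and skeletal muscle genes to 478, against 453 and 537 in Lgr5-Cdx2-Apc. In the rest of Lgr5-Apc these sums were 8.47 to 51.9 and 7.48 to 49.6. The columnar score was 6.35 in Lgr5-Apc 2, against 6.33 and 3.84 in Lgr5-Cdx2-Apc. Leukocyte genes summed to 7.14 in Lgr5-Apc 2. The smooth muscle score of both Lgr5-Cdx2-Apc libraries (3.11 and 2.44) lay below that of the other 10, where it ran from 5.67 to 8.16, and the summed FPKM of its 10 genes was 102 and 70.1, against 745 to 4640. No squamous, hair follicle or skeletal muscle marker was listed at 0 in Lgr5-Cdx2-Apc. In at least 1 library each, Lor, Ivl and Dsg3 were at 0 in Lgr5-Apc and Ivl in Cdx2-Apc and controls, and all 8 hair follicle genes were at 0 in Lgr5-Apc and controls. Columnar epithelium markers were present in every library, with the lowest sum, 176 FPKM, in Lgr5-Cdx2-Apc 2. In such bulk samples fewer cells of a type and less RNA per cell cannot be told apart.

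The start regions of Wnt3, Wnt10b and Wif1 are shown because Wnt3 and Wnt10b were called higher in Lgr5-Cdx2-Apc than in each of the other 3 groups, and Wif1 is the secreted inhibitor that was called higher. Wnt10b and Wif1 passed the filter only through those libraries. The windows run 250 bases before to 50 after the RefSeq start on GRCm38.p6, at chr11:103773925-103774224 (plus strand) for Wnt3, chr15:98778101-98778400 (minus strand) for Wnt10b and chr10:121033754-121034053 (plus strand) for Wif1. Capitals mark the GC box GGGCGG, the CCAAT box CCAAT and the TATA box TATAAA, each on either strand.
Wnt3: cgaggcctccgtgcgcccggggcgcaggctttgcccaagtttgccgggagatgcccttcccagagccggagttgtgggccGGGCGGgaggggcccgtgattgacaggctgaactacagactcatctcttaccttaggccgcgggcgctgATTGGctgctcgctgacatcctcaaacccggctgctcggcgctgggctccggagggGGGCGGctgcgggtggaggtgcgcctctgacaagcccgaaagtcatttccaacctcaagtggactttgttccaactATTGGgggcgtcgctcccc
Wnt10b: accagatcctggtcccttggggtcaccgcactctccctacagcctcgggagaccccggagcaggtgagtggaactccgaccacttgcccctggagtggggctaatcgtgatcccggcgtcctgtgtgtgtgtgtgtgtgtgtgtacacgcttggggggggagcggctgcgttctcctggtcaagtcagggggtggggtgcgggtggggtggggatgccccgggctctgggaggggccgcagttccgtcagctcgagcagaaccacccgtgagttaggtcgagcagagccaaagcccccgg
Wif1: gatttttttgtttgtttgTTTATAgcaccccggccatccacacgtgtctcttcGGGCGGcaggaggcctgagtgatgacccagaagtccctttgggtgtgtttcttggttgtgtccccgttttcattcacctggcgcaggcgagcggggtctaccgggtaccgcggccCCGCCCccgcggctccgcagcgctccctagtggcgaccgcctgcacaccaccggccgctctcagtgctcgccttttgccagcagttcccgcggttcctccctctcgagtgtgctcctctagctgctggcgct

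The Wnt3 window held 2 GC boxes and 2 CCAAT boxes, the Wif1 window 2 GC boxes and 1 TATA box, and the Wnt10b window none of these letters. The core letters bound by TCF and LEF factors, CTTTGA on either strand, were in none of these 3 windows. RefSeq windows matched 29 of the 42 genes, and 5 of the 29 (17.2%) held CTTTGA, against 16.0% of all 32851 windows. The GC box was in 23 of the 29 (79.3%) against 35.7% of all windows. The CCAAT box was in 12 (41.4%) against 37.4%, and the TATA box in 6 (20.7%) against 13.6%. A gene of the family counted once if any of its windows held the letters, while the background counts single windows. The paired percentages are therefore not in the same unit. In the 3 windows printed above no matches overlapped. These are letter matches and say nothing of binding.

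**Figure D1:**
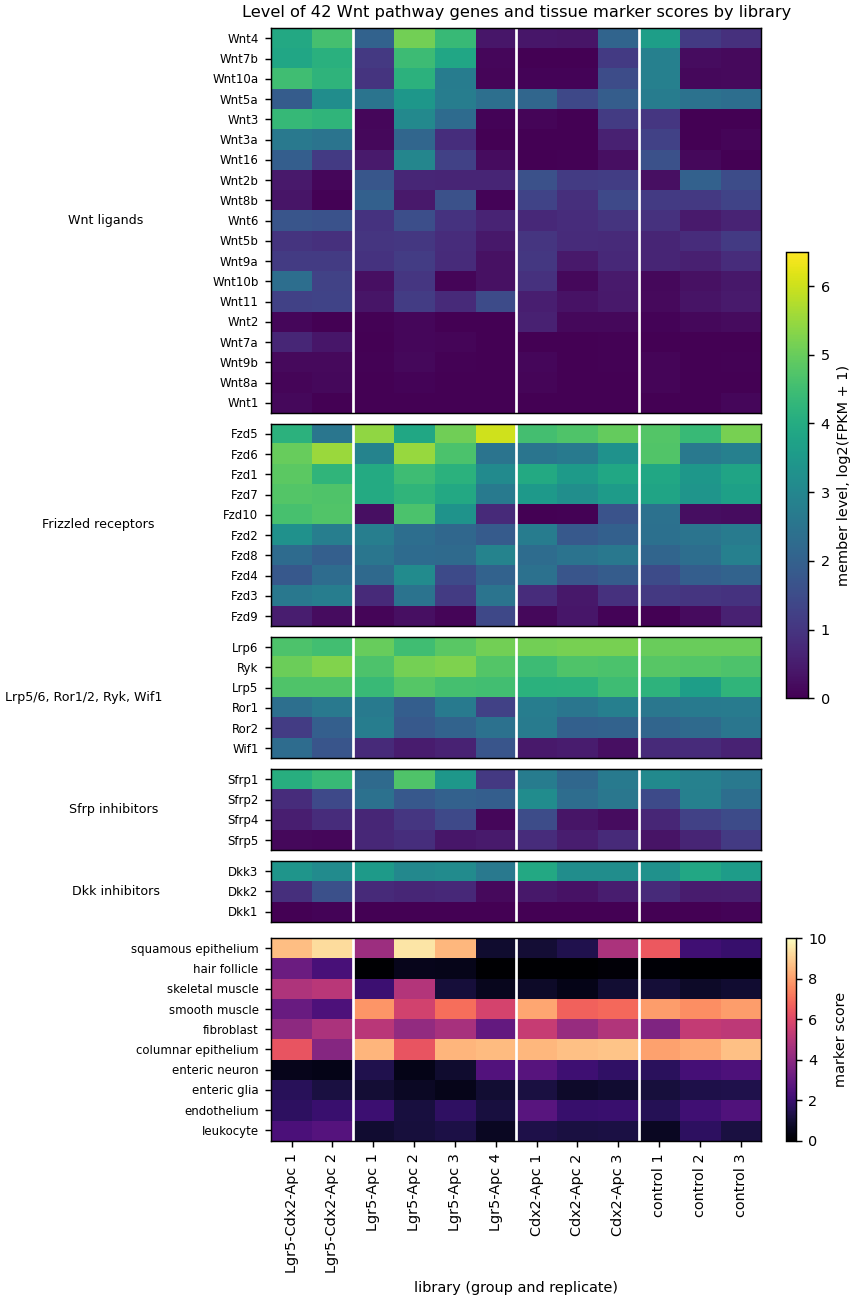
Heat map of the 42 genes (rows, by family) in the 12 libraries (columns), as log2(FPKM + 1), with the tissue marker scores in the lowest panel. The Lgr5-Cdx2-Apc columns are bright for Wnt3, Wnt4, Wnt7b, Wnt10a and Fzd10, and Lgr5-Apc 2 is bright for most of the same rows and for the squamous score.

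Among the ligands, only Wnt5a, a ligand known mainly for signalling without β-catenin, reached 1 FPKM in all 12 libraries. The 19 Wnt genes summed to 91.3 and 96.5 FPKM in Lgr5-Cdx2-Apc, to 19.2, 107, 56.8 and 8.65 in Lgr5-Apc 1 to 4, to 12.2, 6.42 and 17.2 in Cdx2-Apc 1 to 3, and to 37.7, 12.4 and 12 in controls 1 to 3. Lgr5-Apc 2 therefore exceeded both Lgr5-Cdx2-Apc libraries, and the sums of Lgr5-Cdx2-Apc lay above all Cdx2-Apc and control sums. The leading ligand was Wnt10a in Lgr5-Cdx2-Apc 1 and Wnt4 in Lgr5-Cdx2-Apc 2, Lgr5-Apc 2 and 3, Cdx2-Apc 3 and control 1. It was Wnt5a in the other 6 libraries, which had the lowest squamous scores of the 12.

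**Figure D2:**
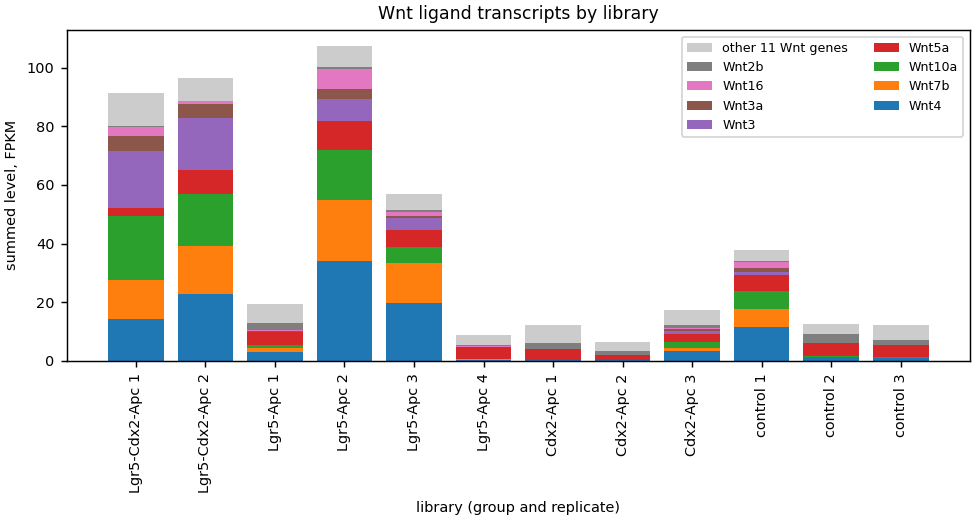
Stacked bars of summed Wnt FPKM in each of the 12 libraries, with the 8 leading ligands in colour and the other Wnt genes in grey. The bars reach 91.3 and 96.5 FPKM in Lgr5-Cdx2-Apc and 107 in Lgr5-Apc 2, against at most 37.7 in Cdx2-Apc and control libraries.

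Wnt3, a β-catenin ligand made by Paneth cells of the small intestine and by skin epithelium, had the largest difference from control among the called ligands. It stood at 19.5 and 17.9 FPKM in Lgr5-Cdx2-Apc, against 0.0909, 7.29, 3.87 and 0.0432 in Lgr5-Apc, 0.0599, 0.0173 and 1.20 in Cdx2-Apc, and 1.04 in control 1 with controls 2 and 3 listed at 0. Both Lgr5-Cdx2-Apc libraries lay above all others, and Lgr5-Apc 2 and 3 came next. The log2 difference was 3.96 ± 0.84 (SE) against control (adjusted p = 0.0144), 2.92 ± 0.79 against Lgr5-Apc (adjusted p = 0.0476) and 3.88 ± 0.84 against Cdx2-Apc (adjusted p = 0.0123). With the squamous score in the model, the difference from control was 2.18 ± 0.43 (adjusted p = 0.0264). With the smooth muscle score in the model it was 1.93 ± 2.32 (adjusted p = 0.94). That score is low in both Lgr5-Cdx2-Apc libraries and in no other, so this fit cannot tell group and score apart. The call against Lgr5-Apc was lost with a pseudocount of 0.1 FPKM, no filter, only the groups compared or the replicate number as a block. In fits without 1 library of Lgr5-Apc, Cdx2-Apc or control, it was kept only without Lgr5-Apc 2. Over all fits that left out 1 library that difference ran from 2.48 to 3.48.

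Wnt10b, a β-catenin ligand of hair follicle and mammary epithelium, was at 4.12 and 1.45 FPKM in Lgr5-Cdx2-Apc, against 0.207, 1.03, 0.0653 and 0.222 in Lgr5-Apc, 0.909, 0.109 and 0.378 in Cdx2-Apc, and 0.0944, 0.229 and 0.327 in controls. The groups did not overlap, although the levels were low and Lgr5-Cdx2-Apc 2 lay close to Lgr5-Apc 2. The log2 difference was 1.55 ± 0.37 against control (adjusted p = 0.0209), 1.41 ± 0.35 against Lgr5-Apc (adjusted p = 0.0368) and 1.31 ± 0.37 against Cdx2-Apc (adjusted p = 0.0305). Because the gene passed the filter only through the Lgr5-Cdx2-Apc libraries, it was also tested with no filter, where the adjusted p was 0.025, 0.0388 and 0.0375 in the same order. These 3 comparisons share the Lgr5-Cdx2-Apc libraries. With a pseudocount of 0.1 FPKM, or with only the groups compared, Wnt10b was called against control alone. With the replicate number as a block, or with the squamous score in the model, it was called in no comparison.

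Wnt3a, a close relative of Wnt3, was at 5.17 and 4.65 FPKM in Lgr5-Cdx2-Apc, against 0.0924, 3.41 and 0.811 in Lgr5-Apc 1 to 3 and 0 in Lgr5-Apc 4, 0.517 in Cdx2-Apc 3 with the other two at 0, and 1.38, 0.0165 and 0.0569 in controls. It was above every other library, with a log2 difference of 2.11 ± 0.59 against control (adjusted p = 0.0351) and 2.36 ± 0.59 against Cdx2-Apc (adjusted p = 0.0208). Wnt6, a ligand of several epithelia, was at 2.27 and 2.13 FPKM in Lgr5-Cdx2-Apc, against 0.945, 1.97, 0.948 and 0.579 in Lgr5-Apc, 0.683, 0.768 and 0.958 in Cdx2-Apc, and 0.886, 0.380 and 0.556 in controls. Its difference was 1.01 ± 0.26 against control (adjusted p = 0.0273) and 0.83 ± 0.26 against Cdx2-Apc (adjusted p = 0.0436). Wnt11, which acts mostly without β-catenin, was at 1.37 and 1.48 FPKM in Lgr5-Cdx2-Apc, against 0.292, 1.24, 0.712 and 1.79 in Lgr5-Apc, 0.459, 0.245 and 0.356 in Cdx2-Apc, and 0.130, 0.274 and 0.397 in controls. It was called against control (0.94 ± 0.29, adjusted p = 0.0467) and overlapped with Lgr5-Apc.

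Wnt10a lies next to Wnt6 on chromosome 1, with 6.2 kb between the genes. It was at 21.8 and 17.6 FPKM in Lgr5-Cdx2-Apc, against 0.971, 17.1, 5.65 and 0.0677 in Lgr5-Apc, 0.0403, 0.0443 and 1.84 in Cdx2-Apc, and 6.11, 0.0965 and 0.117 in controls. The spread within Lgr5-Apc and controls was wide, and the gene was called only against Cdx2-Apc (3.82 ± 1.15, adjusted p = 0.0379). Wnt4, a ligand with roles in kidney and reproductive tract development, had the highest mean of the Wnt genes and was called in no comparison. It stood at 14.3 and 22.8 FPKM in Lgr5-Cdx2-Apc, 3.09, 33.9, 19.8 and 0.312 in Lgr5-Apc, 0.311, 0.281 and 3.27 in Cdx2-Apc, and 11.5, 1.16 and 0.871 in controls. Lgr5-Apc 2 was the highest library and control 1 lay well above the other two controls. Wnt7b, a ligand of lung and skin epithelium, was at 13.4 and 16.5 FPKM in Lgr5-Cdx2-Apc, 1.11, 21.1, 13.5 and 0.0824 in Lgr5-Apc, 0, 0.0149 and 1.16 in Cdx2-Apc, and 6.10, 0.170 and 0.121 in controls, with no call. It was the 1 of 33 tested genes whose order over libraries matched the squamous score within all 4 groups, as did 131 of 17360 genes (0.755%). Wnt5a, at 2.70 and 8.16 FPKM in Lgr5-Cdx2-Apc, 4.20 to 9.89 in Lgr5-Apc, 1.67 to 3.46 in Cdx2-Apc and 4.11 to 5.63 in controls, was called in no comparison. The other 5 tested Wnt genes, Wnt2b, Wnt5b, Wnt8b, Wnt9a and Wnt16, ranged from 0 to 6.95 FPKM, with the highest value for Wnt16 in Lgr5-Apc 2.

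**Figure D3:**
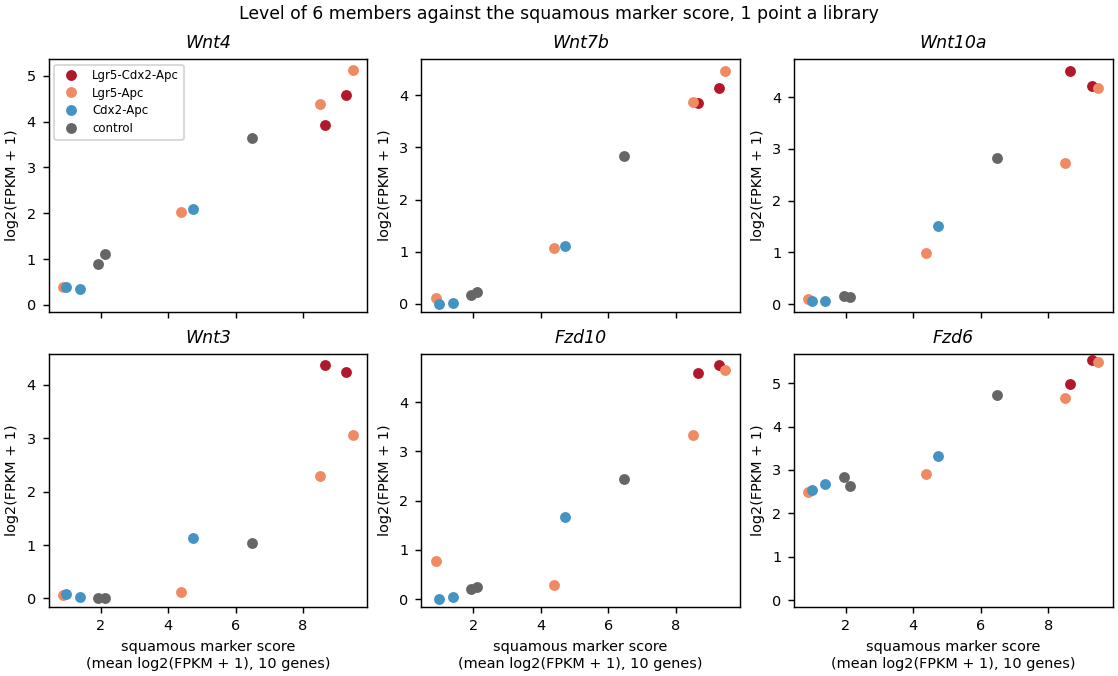
Level of 6 genes as log2(FPKM + 1) against the squamous marker score, 1 point for each of the 12 libraries, coloured by group. Lgr5-Apc 2 and 3 and control 1, with squamous scores of 9.47, 8.5 and 6.48, lie to the right of the other libraries of their groups.

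Of the Frizzled receptors, 7 of 10 reached 1 FPKM in all 12 libraries. Fzd3, which works in planar cell polarity, was at 5.12 and 5.73 FPKM in Lgr5-Cdx2-Apc, against 0.701, 4.58, 1.20 and 4.69 in Lgr5-Apc, 0.780, 0.347 and 0.905 in Cdx2-Apc, and 1.12, 1.00 and 0.951 in controls. Both Lgr5-Cdx2-Apc libraries lay above the rest, with Lgr5-Apc 2 and 4 close below. The difference was 1.67 ± 0.48 against control (adjusted p = 0.038) and 1.95 ± 0.48 against Cdx2-Apc (adjusted p = 0.0194). With the smooth muscle score in the model these became -1.14 and -0.53, with no call. That score is low in both Lgr5-Cdx2-Apc libraries and in no other. The fit therefore cannot tell group and score apart, and no reversal of Fzd3 is read from it.

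Fzd10, a relative of Fzd4 and Fzd9, was at 23.2 and 25.8 FPKM in Lgr5-Cdx2-Apc, against 0.213, 24.2, 9.04 and 0.717 in Lgr5-Apc, 0, 0.035 and 2.16 in Cdx2-Apc, and 4.41, 0.189 and 0.156 in controls. It was called against Cdx2-Apc (4.10 ± 1.21, adjusted p = 0.0358), and Lgr5-Apc 2 lay at the level of Lgr5-Cdx2-Apc. Fzd7, a receptor of intestinal stem cells, was at 26.1 and 25.2 FPKM in Lgr5-Cdx2-Apc, against 14.6, 18.2, 14.2 and 5.26 in Lgr5-Apc, 10.5, 8.34 and 10.8 in Cdx2-Apc, and 12.9, 9.47 and 11.9 in controls. It did not overlap with any other group and was called against Cdx2-Apc (1.30 ± 0.39, adjusted p = 0.0368). Fzd5, the receptor that Paneth cells need to mature, was at 17.0 and 4.82 FPKM in Lgr5-Cdx2-Apc, against 42, 13.7, 33.2 and 63.9 in Lgr5-Apc, 22.7, 25.3 and 30.3 in Cdx2-Apc, and 25.9, 19.7 and 35.0 in controls. It led the Frizzled genes in 9 libraries, but not in Lgr5-Cdx2-Apc 1 and 2 or Lgr5-Apc 2, where Fzd6 led. Fzd6, which orders hair and skin cells in the plane of the tissue, stood at 30.8 and 45.1 FPKM in Lgr5-Cdx2-Apc and at 6.51, 43.9, 24.1 and 4.64 in Lgr5-Apc, 4.81, 5.42 and 8.99 in Cdx2-Apc, and 25.7, 5.15 and 6.10 in controls. Neither Fzd5 nor Fzd6 was called in any comparison. The other 5 Frizzled genes include Fzd1, with means of 23.1 ± 7.15 FPKM (SD, n = 2) in Lgr5-Cdx2-Apc and 12.1 ± 2.06 (SD, n = 3) in controls, and Fzd2, Fzd4 and Fzd8 at 1.73 to 8.82 FPKM.

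**Figure D4:**
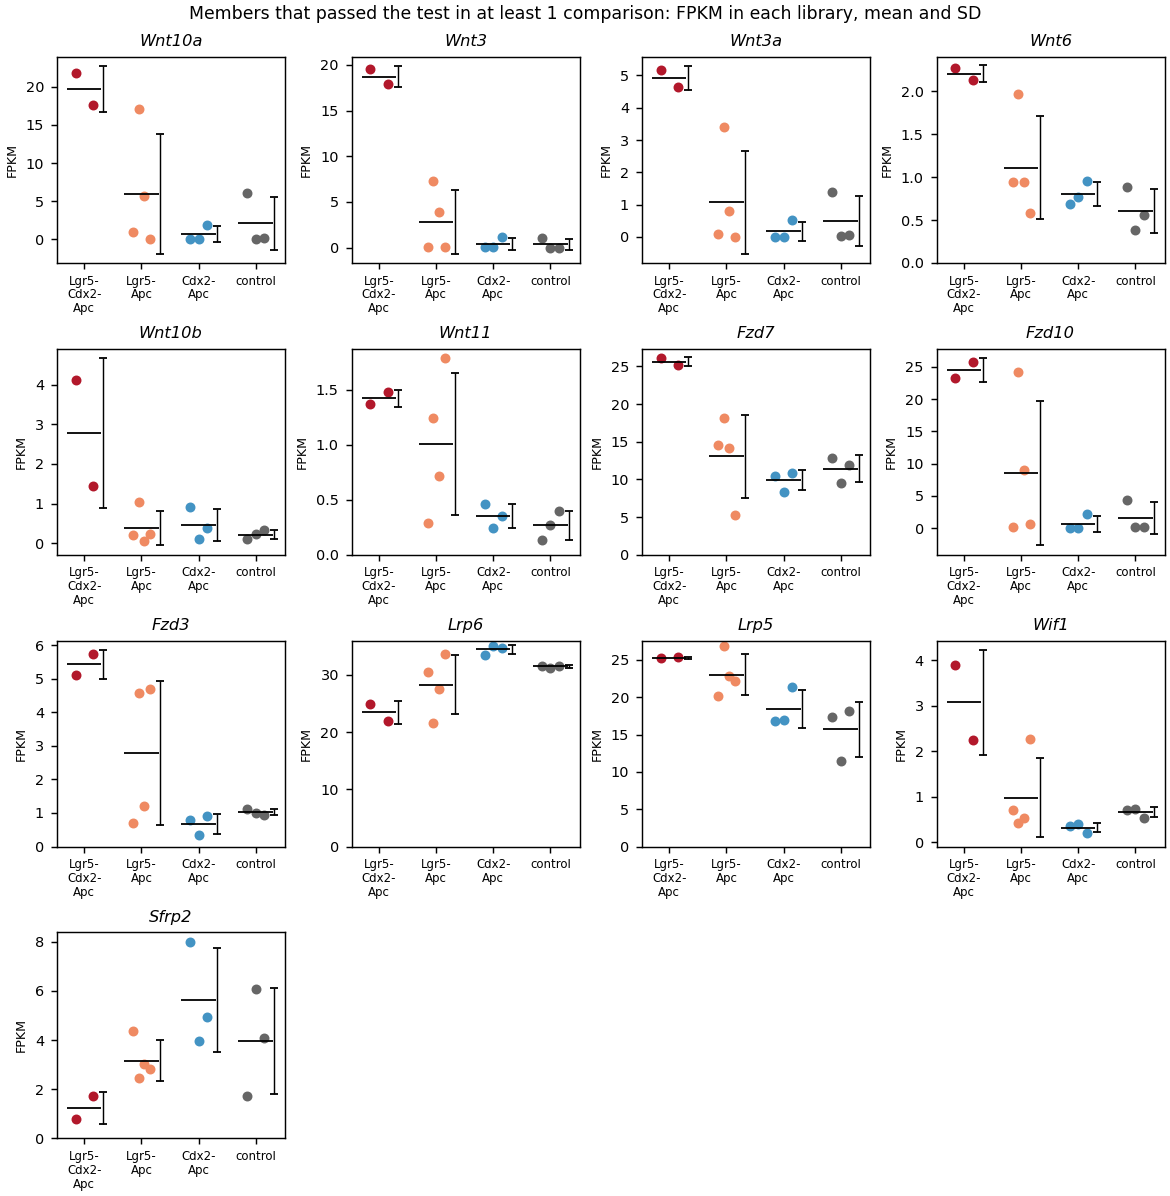
FPKM in each library of the genes called in at least 1 comparison, by group, with the group mean and SD. The Lgr5-Cdx2-Apc points of Wnt3 (19.5 and 17.9) lie above every other library, while for Fzd10 Lgr5-Apc 2 (24.2) lies among them.

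Lrp5 and Lrp6, the coreceptors for β-catenin signalling, were called in opposite directions in different comparisons. Lrp5 was at 25.2 and 25.4 FPKM in Lgr5-Cdx2-Apc, against 20.2, 26.8, 22.9 and 22.1 in Lgr5-Apc, 16.8, 17.0 and 21.3 in Cdx2-Apc, and 17.4, 11.5 and 18.2 in controls. It was called against control (0.68 ± 0.21, adjusted p = 0.0459), without overlap. Lrp6 was at 24.9 and 22.0 FPKM in Lgr5-Cdx2-Apc, against 30.5, 21.6, 27.5 and 33.6 in Lgr5-Apc, 33.5, 35.1 and 34.7 in Cdx2-Apc, and 31.6, 31.2 and 31.6 in controls. It was called lower against Cdx2-Apc (-0.54 ± 0.17, adjusted p = 0.0487). Ryk, a receptor-like kinase, was at 31.8 and 37.3 FPKM in Lgr5-Cdx2-Apc, 24.9, 34.0, 36.6 and 26.2 in Lgr5-Apc, 21, 25.2 and 24.1 in Cdx2-Apc, and 26.9, 26.1 and 24.6 in controls, and was called in no comparison. Ror1 and Ror2, receptors for Wnt5a, ranged from 1.22 to 5.96 FPKM and were called in none.

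Of the secreted inhibitors, Wif1 was called higher in Lgr5-Cdx2-Apc than in control and Cdx2-Apc, and Sfrp2 lower than in Cdx2-Apc. Wif1, which binds ligands directly, was at 3.89 and 2.26 FPKM in Lgr5-Cdx2-Apc, against 0.712, 0.418, 0.534 and 2.28 in Lgr5-Apc, 0.368, 0.399 and 0.204 in Cdx2-Apc, and 0.722, 0.727 and 0.547 in controls. The difference was 1.26 ± 0.34 against control (adjusted p = 0.0297) and 1.60 ± 0.34 against Cdx2-Apc (adjusted p = 0.0115), and Lgr5-Apc 4 overlapped with Lgr5-Cdx2-Apc. With the squamous score in the model, the difference from control was 1.78 ± 0.33 (adjusted p = 0.0212). Sfrp2, which is made by stromal cells of the gut, was at 0.785 and 1.71 FPKM in Lgr5-Cdx2-Apc, against 4.35, 2.44, 3.02 and 2.82 in Lgr5-Apc, 8.01, 3.98 and 4.92 in Cdx2-Apc, and 1.73, 6.06 and 4.08 in controls. It was called lower against Cdx2-Apc (-1.55 ± 0.40, adjusted p = 0.0233). Sfrp1 was at 16.0 and 19.9 FPKM in Lgr5-Cdx2-Apc, 3.73, 25.0, 9.87 and 1.12 in Lgr5-Apc, 5.60, 3.47 and 5.45 in Cdx2-Apc, and 7.49, 6.22 and 5.17 in controls, with no call. Dkk3, a divergent Dkk protein, was at 9.48 and 7.76 FPKM in Lgr5-Cdx2-Apc, 10.7, 7.23, 7.73 and 5.17 in Lgr5-Apc, 14.2, 8.16 and 8.03 in Cdx2-Apc, and 8.78, 14.0 and 11.1 in controls, and was called in no comparison. Dkk2, which was not tested, was at 0.843 and 2.03 FPKM in Lgr5-Cdx2-Apc, 0.725, 0.626, 0.674 and 0.124 in Lgr5-Apc, 0.338, 0.238 and 0.44 in Cdx2-Apc and 0.702, 0.408 and 0.444 in controls. Sfrp4, the last tested inhibitor, ranged from 0.0751 to 1.83 FPKM.

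Counted over the family, 8 of the 33 tested genes (24.2%) were called in Lgr5-Cdx2-Apc against control, all higher, where 19.1% of all tested genes were called in either direction and 10.5% higher. Without Wnt6, Wnt10b and Wif1, which passed the filter only through Lgr5-Cdx2-Apc, it was 5 of 30 (16.7%). Against Cdx2-Apc, 11 were called, 9 higher and 2 lower (33.3%), where 23.8% of all genes were called, 12.1% higher and 11.7% lower. Without the same 3 genes it was 8 of 30 (26.7%), 6 higher and 2 lower. Against Lgr5-Apc, 2 were called (6.06%), both higher, where 8.99% of all genes were called, and without those 3 genes 1 of 30 (3.33%). All 5 genes still called against control were higher. The shares of all genes still include every gene that passed the filter only through Lgr5-Cdx2-Apc. Shares without those 3 genes are therefore not like for like with them, and nothing particular to the family is read from them. The median log2 difference of the tested genes was 0.68, 0.33 and 0.76 against control, Lgr5-Apc and Cdx2-Apc, and that of all tested genes 0.07, 0.03 and 0.04. Non-overlap was also common in the background: 19 genes were higher without overlap against control (57.6% of 33, all genes 32.1%) and 5 lower (15.2%, all genes 25.3%). Against Lgr5-Apc these were 8 higher (all genes 18.1%) and 2 lower (all genes 14.9%), and against Cdx2-Apc 20 higher (all genes 33.4%) and 7 lower (all genes 30.4%). Wnt6, Wnt10b and Wif1 are among the 19 and the 20, and Wnt6 and Wnt10b among the 8. The medians include all 3 genes as well. These counts and medians thus depend in part on the filter, and nothing particular to the family is read from them.

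**Figure D5:**
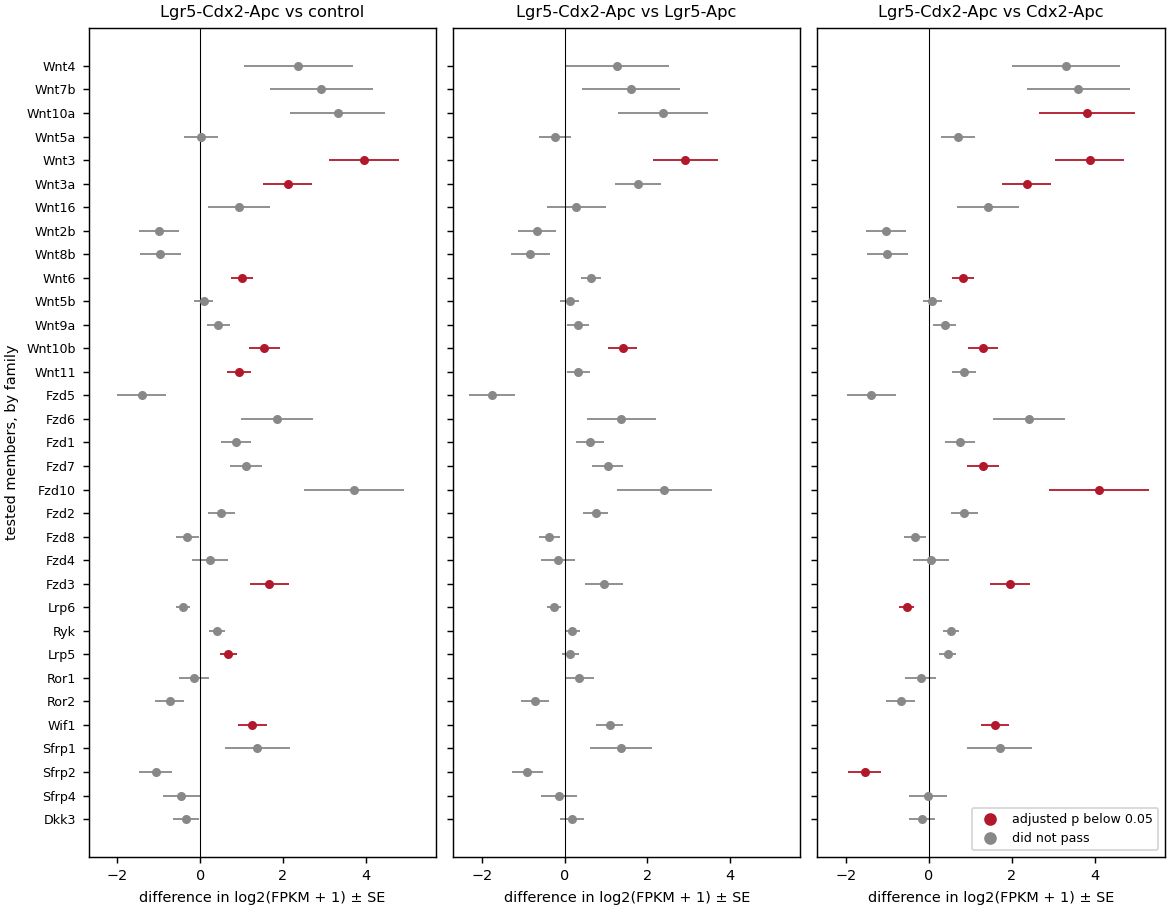
Log2 difference ± SE of the 33 tested genes for Lgr5-Cdx2-Apc against control, against Lgr5-Apc and against Cdx2-Apc; red points passed the adjusted p of 0.05 and grey ones did not. Against control 8 points are red, all to the right of 0, against Lgr5-Apc 2 and against Cdx2-Apc 11.

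Single libraries decided many of these calls, in the family as over all genes. Against control, 0 of the 33 genes were called without Lgr5-Cdx2-Apc 1, without Lgr5-Cdx2-Apc 2 or without control 3, 1 without control 2, 4 without Cdx2-Apc 2, 5 without Cdx2-Apc 1 or 3, and 13 without Lgr5-Apc 2. Over all genes, 3.72%, 0.295% and 5.82% were called in the first 3 of these fits, 7.2% without control 2, 14.3% without Cdx2-Apc 2, 15.5% and 13.5% without Cdx2-Apc 1 and 3, and 27.2% without Lgr5-Apc 2, against 19.1% with all libraries. The differences themselves moved less: over all fits that left out 1 library, the difference from control ran from 3.79 to 4.3 for Wnt3, 1.6 to 1.73 for Fzd3 and 0.86 to 1.01 for Wnt11. Against Cdx2-Apc, 0 were called without either Lgr5-Cdx2-Apc library, and 3 to 5 without 1 Cdx2-Apc library, while 18 were called without Lgr5-Apc 4. The shares of all genes there were 6.18% and 0.643%, 8.98% to 14.2%, and 30.4%. Against Lgr5-Apc, 9 were called without Lgr5-Apc 2 (all genes 25.9%). The number was 0 without Lgr5-Cdx2-Apc 1 or 2, Lgr5-Apc 1 or 3, Cdx2-Apc 3, control 2 or control 3, and 1 without Lgr5-Apc 4, Cdx2-Apc 1, Cdx2-Apc 2 or control 1, where all genes ran from 0.242% to 7.35%. With the squamous score as a covariate, 2 genes stayed called against control, Wnt3 and Wif1, and 1 against Cdx2-Apc, Wif1; against Lgr5-Apc 2 were called, Wnt3 and Wif1. That fit called 3.39%, 1.99% and 5.12% of all genes in these 3 comparisons. With the smooth muscle score, which is low in both Lgr5-Cdx2-Apc libraries and in no other, 0 of the 33 were called, as were 0 of 17360 genes against control, 0 against Cdx2-Apc and 1 against Lgr5-Apc, so this fit says nothing particular to the family. The part of tissue make-up in these results was not tested beyond those fits.

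In the comparisons without Lgr5-Cdx2-Apc, limma called 0 of the 33 genes. In Lgr5-Apc against control, 2 had an unadjusted p below 0.05 (all genes 10.8%), and the smallest p belonged to Lrp5 (0.54 ± 0.17, adjusted p = 0.41) and Wnt11 (0.61 ± 0.24, adjusted p = 0.433), where 0.0115% of all tested genes were called. In Cdx2-Apc against control, 0 did (all genes 1.64%). The smallest p belonged to Wnt5a (-0.68 ± 0.37) and Sfrp2 (0.48 ± 0.36), where 0.0403% of all genes were called. In Lgr5-Apc against Cdx2-Apc, 3 did (all genes 10.4%). The smallest p belonged to Wnt5a (0.94 ± 0.35, adjusted p = 0.418) and Fzd3 (0.99 ± 0.40, adjusted p = 0.444), where 0.0346% of all genes were called. The level of Xist, an RNA of the inactive X chromosome, was 215 and 266 FPKM in Lgr5-Cdx2-Apc, 61.1 to 163 in Lgr5-Apc, 0.702 to 1.12 in Cdx2-Apc and 98.1 to 154 in controls. None of the 42 genes is on chromosome X or Y. All Cdx2-Apc libraries were thus low in Xist and all others high, so in the comparisons with Cdx2-Apc, including the 11 genes called in Lgr5-Cdx2-Apc against it, sex and genotype cannot be told apart.

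Other genes of the pathway were counted from lists. Of 20 tested secreted or membrane modulators, 6 were called higher and 3 lower in Lgr5-Cdx2-Apc against control, where 19.1% of all tested genes were called. Rspo4, an agonist of the Lgr receptors, was at 1.39 and 1.42 FPKM in Lgr5-Cdx2-Apc and at most 0.0412 in Lgr5-Apc, and was listed at 0 in all Cdx2-Apc and control libraries. Lgr6, a receptor for R-spondins found in hair follicle stem cells, was at 16.3 and 23.9 FPKM in Lgr5-Cdx2-Apc, against 0.0401 to 4.80 in Lgr5-Apc, 0.0277 to 0.75 in Cdx2-Apc and 0.0306 to 0.687 in controls (4.08 ± 0.64 against control, adjusted p = 0.00429). Outside Lgr5-Cdx2-Apc, Lgr6 reached 1 FPKM only in Lgr5-Apc 2 (4.80), and Rspo4 in no library. Both genes passed the filter only through the Lgr5-Cdx2-Apc libraries, so their calls already depend on that group. Tspan12, which assists Fzd4 signalling, was at 4.80 and 2.83 FPKM in Lgr5-Cdx2-Apc, against 23.0, 25.7 and 30.8 in controls, a difference of -2.53 ± 0.35 (adjusted p = 0.00231). Lgr4, another R-spondin receptor, was lower as well (-1.31 ± 0.26, adjusted p = 0.0113). Of 9 planar polarity and alternative receptor genes, 2 were called higher and 0 lower, Vangl2 (2.55 ± 0.55, adjusted p = 0.0153) and Prickle3 (1.72 ± 0.49, adjusted p = 0.0376).

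Of 18 intracellular genes, 5 were called higher and 1 lower in the same comparison. They include Ctnnbip1, an inhibitor of β-catenin binding to TCF factors (2.42 ± 0.40, adjusted p = 0.00546), the TCF factor Tcf7 (1.23 ± 0.23, adjusted p = 0.00923), Dvl1 (1.08 ± 0.28, adjusted p = 0.0272) and Bcl9l (1.89 ± 0.52, adjusted p = 0.0335). Pygo1, also called higher, reached 1 FPKM outside Lgr5-Cdx2-Apc only in Lgr5-Apc 2 (1.12), so it passed the filter only through Lgr5-Cdx2-Apc. Tcf7 is also made by T cells, and the T cell gene Cd3e was higher in the same libraries; its part in the Tcf7 value was not tested. Of 10 target genes, 2 were called higher and 1 lower. Axin2, the common readout of β-catenin activity, was at 20.5 and 14.6 FPKM in Lgr5-Cdx2-Apc, 6.87, 9.37, 5.85 and 11.7 in Lgr5-Apc, 12.1, 12.7 and 12.3 in Cdx2-Apc, and 9.31, 6.98 and 10.8 in controls (0.88 ± 0.27 against control, adjusted p = 0.0468). Tnfrsf19, also expressed in hair follicles, was at 56.0 and 57.6 FPKM in Lgr5-Cdx2-Apc against 1.57 to 5.56 in controls (3.94 ± 0.68, adjusted p = 0.00705). Ephb2, a marker of crypt cells, was at 3.71 and 1.81 FPKM in Lgr5-Cdx2-Apc against 8.49 to 15.9 in controls (-1.80 ± 0.47, adjusted p = 0.0276). Against Lgr5-Apc the called genes of the 4 lists, higher and lower, were 3 and 2 modulators, 1 and 0 polarity genes, 2 and 0 intracellular genes and 2 and 1 targets, where 8.99% of all genes were called. Against Cdx2-Apc they were 8 and 3, 5 and 0, 4 and 1, and 2 and 1 in the same order, where 23.8% of all genes were called. Rspo4, Lgr6 and Pygo1 are among the genes called higher in both of these comparisons. In the comparisons without Lgr5-Cdx2-Apc limma called 0 of the genes on the 4 lists. The hair follicle genes given above were high in the same 2 libraries; their part in these values was not tested.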

How the data were processed

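The authors deposited 1 value per gene and library, taken here as FPKM: the file header names no unit, and FPKM was inferred from the tools in the notes and from the values. Per the submitters' processing notes STAR, Cufflinks and Cuffdiff were used with mm10. Versions, annotation and use of strand in counting are not given in the sources used here, and antisense or overlapping genes cannot be told apart. Libraries were directional and made from DNase-treated RNA, per the labels' protocols. Depth in reads is unknown, so no counting interval was computed, and summed FPKM ranged from 451333 to 728495 per library. The table held 27831 lines. Of these, 25 names had become dates and were kept unnamed, and for 44 other repeated symbols the highest-mean line was kept, leaving 27785 genes.

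After adding 1 FPKM to each value, log2 was taken, and limma 3.58.1 (R 4.3.3) was run on the 12 libraries together with group means as coefficients, trended empirical Bayes moderation and 6 two-sided contrasts and Benjamini-Hochberg adjustment over 17360 genes. The procedure was checked on simulated data. Values in every library are given for each gene of the family called in any contrast and for the 2 highest-mean genes of each of 5 subfamilies. Fzd1, Wnt5a, Frzb, Sostdc1, Dkkl1 and Xist were added after their values were seen. Differences are given for called genes, or the 2 smallest p where none is called, and up to 4 smallest-p genes of a pathway list. The genes and lists were chosen with earlier results of these data known. Alternatives changed the pseudocount, filter, scaling, libraries fitted, replicate block and marker-score covariates one at a time. Positions come from GENCODE M21 on GRCm38 and promoter windows from RefSeq. Replicate numbers were checked for pairing: of 15 same-number pairs, 5 had correlated deviations above 0.1, with correlations from -0.3 to 0.42. In groups of 2 to 4 libraries, deviations from the group mean depend on each other, so this check cannot decide whether the numbers pair libraries.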

Additional observations from a re-analysis of the deposited data

Results flagged for a closer look

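Among the 42 genes, a single Lgr5-Apc library stood far from the other 3 in 5 cases, by Dixon's test for groups of 4, which chance alone gives in about 1 in 20 groups. Wif1 was at 2.28 FPKM in Lgr5-Apc 4, against 0.418 to 0.712 in the other 3 libraries. Fzd9 was at 1.67 FPKM in Lgr5-Apc 4, against 0.068 to 0.203. Dkk2 was at 0.124 FPKM in Lgr5-Apc 4, against 0.626 to 0.725. Wnt10b was at 1.03 FPKM in Lgr5-Apc 2, against 0.0653 to 0.222. Wnt2b was at 2.31 FPKM in Lgr5-Apc 1, against 0.591 to 0.618. The other groups hold 2 or 3 libraries and were not examined in this way.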

How the results depend on the processing

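Counts of called genes of the family were recomputed under each alternative, with the share of all tested genes called in brackets. In Lgr5-Cdx2-Apc against control the main count of 8 (19.1%) became 1 with a mean of at least 5 FPKM (18.7%), 16 without Lgr5-Apc 2 and 3 (29.1%), 0 with the smooth muscle score (0.0%) and 2 with the squamous score as a covariate (3.39%), and leaving out 1 library gave 0 to 13. Against Lgr5-Apc the main count of 2 (8.99%) became 0 with a pseudocount of 0.1 FPKM (6.43%), 0 with a mean of at least 5 FPKM (4.87%), 0 with only the groups compared (0.933%), 1 with the replicate number as a block (3.34%), 14 without Lgr5-Apc 2 and 3 (27.7%) and 0 with the smooth muscle score (0.00576%), and leaving out 1 library gave 0 to 9. Against Cdx2-Apc the main count of 11 (23.8%) became 6 with a pseudocount of 0.1 (21.7%), 4 with a mean of at least 5 FPKM (26.1%), 19 with only the groups compared (34.7%), 18 without Lgr5-Apc 2 and 3 (32.5%), 0 with the smooth muscle score (0.0%) and 1 with the squamous score (1.99%), and leaving out 1 library gave 0 to 18. At a mean of at least 5 FPKM only 13 genes of the family and 10306 genes in all are tested; the cause of the other changes was not tested. The other 3 comparisons gave 0 under each alternative run. With the replicate block the counts were 6, 1 and 8 against control, Lgr5-Apc and Cdx2-Apc, and the lone call against Lgr5-Apc was Wif1. Whether the replicate numbers pair libraries is not known. Of the single-gene differences recomputed, 379 kept direction and side of the threshold, 191 kept direction but lost it, and 3 changed sign, all with the smooth muscle score: Fzd3 against control (-1.14) and Cdx2-Apc (-0.53), and Wnt11 against control (-0.42). The 379 include the 2 smallest-p genes of each comparison without a call, which kept their side by staying uncalled. All 191 that lost the threshold were called differences, so the 379 overstate how steady the calls were. With the squamous score 10 kept their side and 17 lost the call. The smooth muscle score cannot be told apart from the Lgr5-Cdx2-Apc group, so nothing is read from the sign changes. A library left alone in its group was assumed to vary like the others. Depth in reads is unknown, so low values such as those of Wnt10b, Wnt6 and Wif1 carry an unmeasured counting error.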
